A study of Rattus norvegicus with 20 samples.

Results

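Adult skeletal muscle is recognised on an expression array by the genes of its sarcomere, and 40 such genes were followed through the healing of the injured rat vocal fold. They comprised the fast fibre isoforms (16 genes), the slow fibre isoforms (11 genes) and the sarcomere genes that both fibre types share (13 genes). A member was read from the probe set whose platform gene symbol named it, or named it under another symbol of the same gene ID, as for Mylpf (Myl11 on the platform). Of the 40 genes, 35 were measured on a named probe set, among 15037 named genes: 14 fast, 10 slow and 11 shared. Myoz3, Ryr1, Mybpc2, Myoz2 and Neb were not analysed here. The members were listed by gene name, and the list was chosen with earlier results of these data known. In 3 groups of 5 male Sprague-Dawley rats the vocal fold was wounded by stripping the lamina propria off the thyroarytenoid muscle, and the folds were taken 1, 4 or 8 weeks later. In the control group 5 rats had no injury. The labels describe both folds as dissected, whereas the study's methods mention injury of 1 side or both, and whether any injured sample holds tissue of an uninjured side is not stated in the sources used here. The whole dissected fold was profiled, with 1 array per animal, on 20 arrays. Squamous epithelium, matrix and muscle genes were all measured in it, with 5 of 6 epithelial genes and 14 of the 35 members above the brightest background probe set on every array.

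The sarcomere is the contractile unit of striated muscle, in which thick filaments of myosin pull on thin filaments of actin. Calcium released from the sarcoplasmic reticulum binds troponin C, and the troponin complex then moves tropomyosin off the myosin sites of actin. Fast and slow fibres use different genes for nearly every one of these parts, from the myosin heavy chain to the calcium pump. The isoforms therefore serve as markers of fibre type. A single isoform does not identify it, since genes listed as slow can be used elsewhere, as Atp2a2 is by other cells. The thyroarytenoid muscle, which lies beneath the lamina propria, is a fast laryngeal muscle in the rat.

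Values are log2 signals, on which a difference of 1 is a 2-fold difference, and differences are given as injured minus control with their standard error (SE). Tests are limma's moderated test on all 4 groups with Benjamini-Hochberg adjustment over the 15049 named probe sets. A gene rose or fell where its adjusted p was under 0.05. The hybridization control probe sets averaged 10.19, 10.09 and 10.07 at 1, 4 and 8 weeks, against 9.25 in the controls, with no overlap between any injured group and the controls. The brightest of 23 background probe sets was also higher after injury, at 6.14 to 7.14, 6.25 to 6.497 and 6.17 to 6.59 at 1, 4 and 8 weeks, against 4.995 to 5.70 in the controls. Hybridization and injury therefore cannot be told apart in any comparison with the controls. Where a gene was below the brightest background probe set on every array of a group, its difference is one of signals near background and not a fold, and a bound on the fold, against the higher of that background and its own signal on each array, is given for Actn3 and Ncam1. Control replicate 3 had the lowest array median of all 20 (4.58, against 4.83 to 4.94 on the other arrays).

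The members varied together between animals of 1 group, and more than most genes. Their within-group SD had a median of 0.862 (0.269 to 1.53), against 0.272 over all probe sets tested. In a dissected fold, fewer muscle cells and less RNA per muscle cell cannot be told apart. Control replicate 3 was the lowest control for all 35 members, and for 62.1% of all probe sets. The median gap of a member there to the mean of the other controls was -1.88, against -0.38 over all probe sets. The array at 8 weeks labelled replicate 3 was the lowest of its group for 28 of the 35 members, and for 17.7% of all probe sets. The 28 were all 14 fast, all 11 shared and 3 of the 10 slow genes. On that array the members and all probe sets also differed in their gaps. The median gap of this array to the other 8-week arrays was -2.25 over the members and 0.025 over all probe sets. The 7 slow members that were not lowest there were Myh7, Myl2, Myl3, Tnnt1, Tnni1, Tnnc1 and Tpm3. Of these, Myh7, Myl3, Tnnt1, Tnni1 and Tnnc1 were below the brightest background probe set of that array (6.17). Their rank there is one of signals near background, so it does not show that slow genes were spared. At 1 week, replicate 3 had the highest signal of all 20 arrays for 6 slow members (Myh7, Myl2, Tnnt1, Tnni1, Tnnc1 and Casq2). Of these, Myh7 (5.25) was below that array's brightest background probe set (6.14), and Myl2 (7.86) was close to control replicate 2 (7.82). It had the lowest signal of its group for 6 fast members (Myh4, Actn3, Myoz1, Casq1, Atp2a1 and Pvalb). Within its group this array was highest for 12 and lowest for 9 of the 35 members, and for 23.1% and 19.1% of all probe sets.

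**Figure D1:**
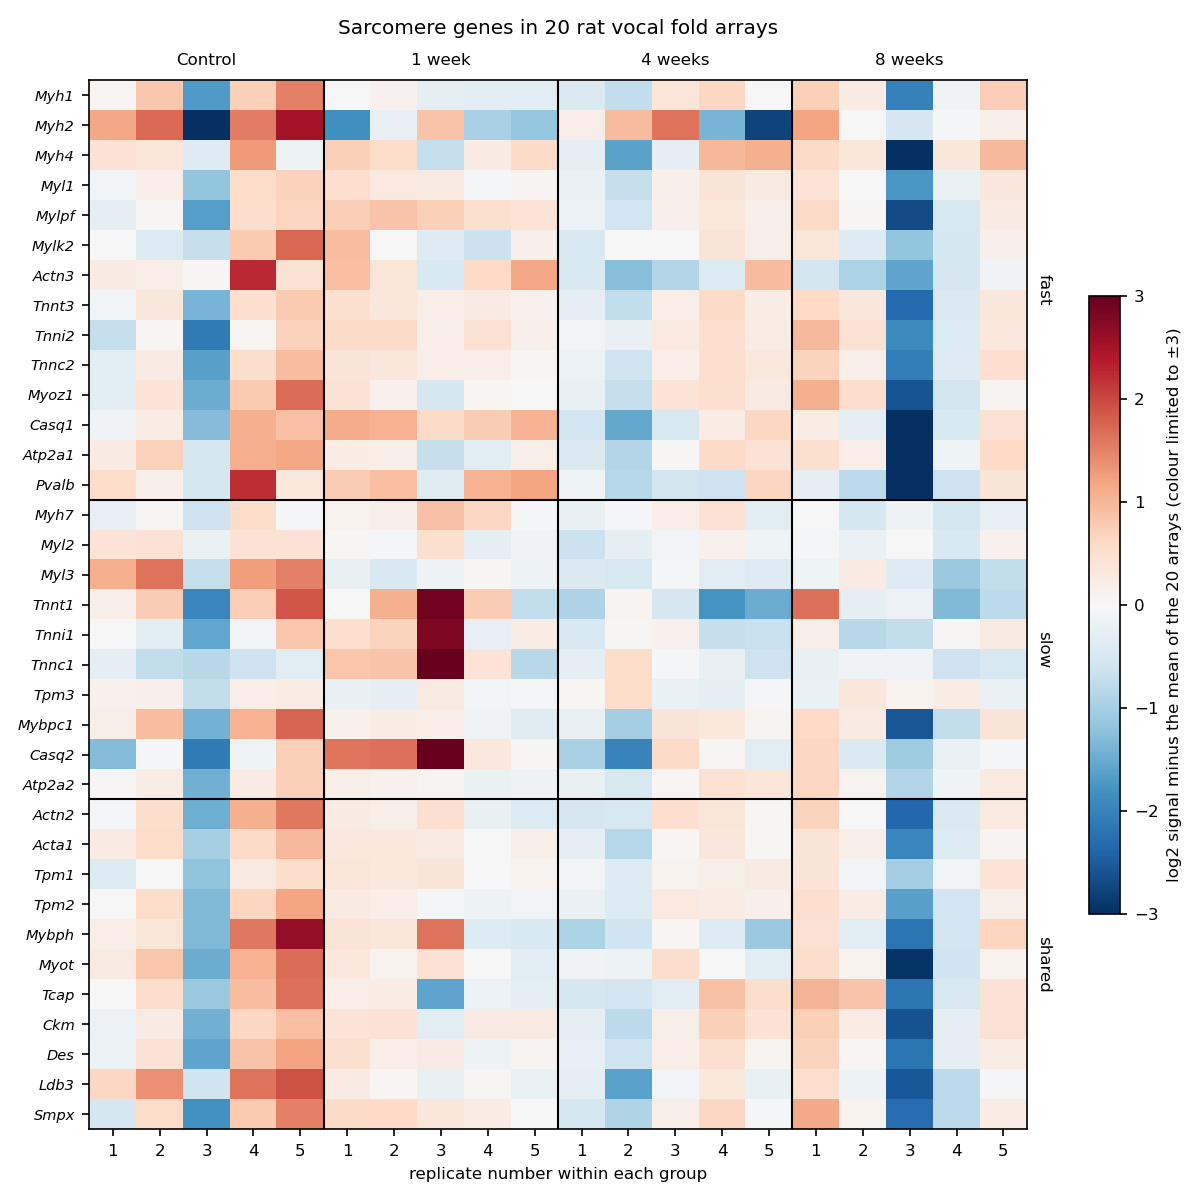
Log2 signal of the 35 measured sarcomere genes (rows, grouped as fast, slow and shared) on the 20 arrays (columns, 5 replicates each of control, 1, 4 and 8 weeks), drawn as the difference from each gene's mean over the 20 arrays. Control replicate 3 and 8-week replicate 3 are dark blue in most rows, and 1-week replicate 3 is dark red in Tnnt1, Tnni1, Tnnc1 and Casq2.

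The promoters of the members were also read for sequence elements that muscle factors are known to bind. These were the E-box of the MyoD family, the MEF2 box, the CArG box of serum response factor and the MCAT element of the TEAD factors. Any part of these elements in the variation between animals was not tested. RefSeq promoters (GRCr8, 250 bases before to 50 after the start, 300 in all) were matched for 28 of the 35 members by gene ID. The E-box (CANNTG) was in 23 of the 28 (82.1%), against 72.1% of all 33469 promoters. The MEF2 box was in 5 (17.9%, against 3.29% of all), namely Casq2, Myh1, Myh4, Myoz1 and Smpx, and the CArG box in 4 (14.3%, against 1.64%), namely Acta1, Ldb3, Myh4 and Myl3. The MCAT element (CATTCC) was in 5 (17.9%, against 14.2%). Both strands were searched, and a match is a description of the letters and not a binding site. Casq2 and Myl3 are shown because they are slow genes that moved in opposite directions after injury, and Myh4 because it is the fast myosin that was lowest in 1 animal. Capitals mark E-boxes, MEF2 boxes and CArG boxes, which do not overlap in these promoters. All 3 lie on the plus strand, at chr2:192214306-192214605 (Casq2), chr8:119616844-119617143 (Myl3) and chr10:52421898-52422197 (Myh4).
Casq2: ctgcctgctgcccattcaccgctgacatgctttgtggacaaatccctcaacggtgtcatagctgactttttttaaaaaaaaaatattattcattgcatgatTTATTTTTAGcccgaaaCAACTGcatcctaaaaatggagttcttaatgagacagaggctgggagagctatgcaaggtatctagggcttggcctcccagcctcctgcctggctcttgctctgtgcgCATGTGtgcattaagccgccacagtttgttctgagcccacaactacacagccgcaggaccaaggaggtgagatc
Myl3: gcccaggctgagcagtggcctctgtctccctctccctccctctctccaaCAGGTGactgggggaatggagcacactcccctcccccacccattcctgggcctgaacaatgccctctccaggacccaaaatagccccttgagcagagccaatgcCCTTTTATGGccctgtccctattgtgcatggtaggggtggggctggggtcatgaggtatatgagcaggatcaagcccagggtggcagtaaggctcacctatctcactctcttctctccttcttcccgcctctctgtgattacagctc
Myh4: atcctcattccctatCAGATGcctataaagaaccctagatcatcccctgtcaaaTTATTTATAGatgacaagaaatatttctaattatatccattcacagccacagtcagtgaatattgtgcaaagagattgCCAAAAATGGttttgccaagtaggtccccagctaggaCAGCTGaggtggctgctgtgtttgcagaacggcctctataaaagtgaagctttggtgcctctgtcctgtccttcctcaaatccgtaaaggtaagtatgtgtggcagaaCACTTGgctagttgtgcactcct
The Casq2 promoter holds 1 MEF2 box and 2 E-boxes, the Myl3 promoter 1 CArG box and 1 E-box, and the Myh4 promoter 1 of each box and 3 E-boxes.

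Against the controls, 3 members passed the test at 1 week, 1 at 4 weeks and 3 at 8 weeks. The slow calcium genes Casq2 and Tnnc1 rose at 1 week, the slow myosin light chain Myl3 fell at all 3 times, and the Z-disc genes Actn3 and Ldb3 fell at 8 weeks. Of these 5 genes, Myl3, Tnnc1 and Actn3 were below the brightest background probe set on every array of a group compared. Among all probe sets tested 21.3% passed at 1 week, 13% at 4 weeks and 11.6% at 8 weeks, against 8.57%, 2.86% and 8.57% of the members. At 1 week 11.2% of probe sets rose and 10.2% fell. The 4-week shares were 7.52% higher and 5.46% lower, and the 8-week shares 6.96% higher and 4.65% lower. At an unadjusted p under 0.05 there were 5 members in each of these 3 comparisons. No share of all probe sets at that unadjusted cut is given, here or below. Such unadjusted counts therefore have no like background and are not a result about muscle genes in particular. The median member differed from the controls by -0.04 at 1 week, -0.26 at 4 weeks and -0.48 at 8 weeks, where the medians of all probe sets were 0.02, 0.04 and 0.04. These medians moved with single arrays. Without control replicate 4 the 1-week median was 0.19, and without control replicate 5 the 4-week median was 0.04. Without 8-week replicate 3 the 8-week median was 0.01 and only Myl3 passed (8.36% of probe sets). Without control replicate 3 the medians were -0.28, -0.61 and -0.86, and 5, 6 and 8 members passed (26.4%, 17.3% and 15.7% of probe sets). Without both arrays 9, 10 and 4 members passed (26.3%, 17.3% and 12.4%).

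**Figure D2:**
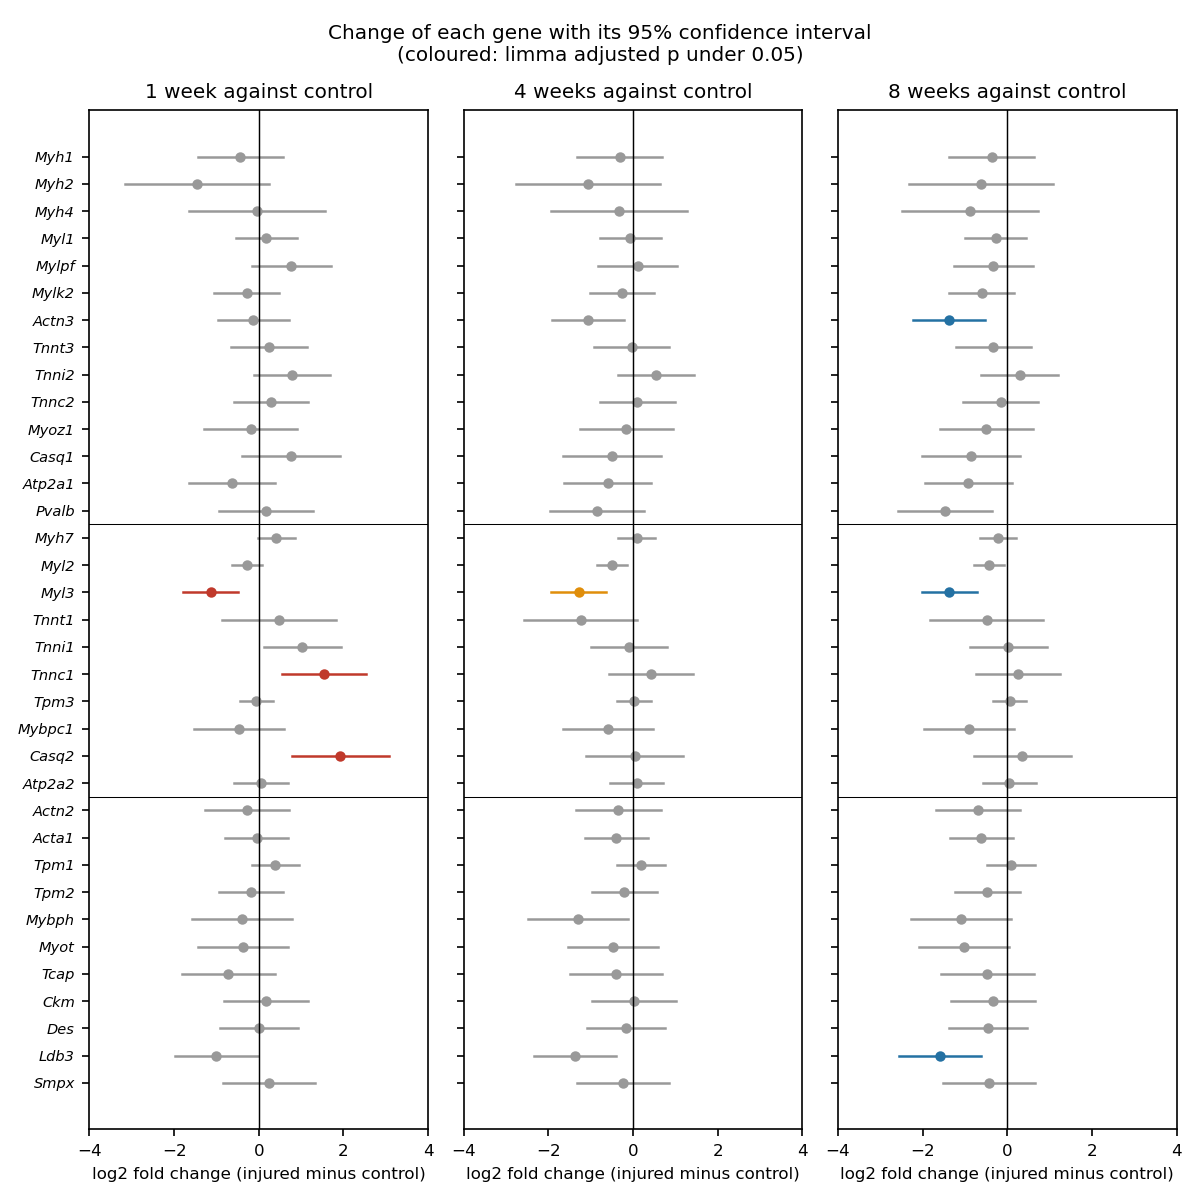
Log2 fold change, injured minus control, of the 35 measured genes (rows; fast, slow and shared from top to bottom) at 1, 4 and 8 weeks, with the 95% confidence interval of the limma fit. Coloured genes had an adjusted p under 0.05: Myl3, Tnnc1 and Casq2 at 1 week, Myl3 at 4 weeks, and Actn3, Myl3 and Ldb3 at 8 weeks.

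Among the slow isoforms, Myl3, the essential light chain of slow and ventricular myosin, fell at every time. Myl3 had 5.68, 6.20, 3.86, 5.83 and 6.09 in the controls and 4.37, 4.12, 4.42, 4.65 and 4.43 at 1 week. Its values were 4.14, 4.10, 4.55, 4.25 and 4.19 at 4 weeks and 4.46, 4.83, 4.19, 3.46 and 3.83 at 8 weeks. Values are listed in the order of replicates 1 to 5, here and for every gene. Of the 5 controls, 4 lay above all 15 injured arrays, and replicate 3 lay among the injured. The differences in signal were -1.13 ± 0.31 at 1 week (adjusted p = 0.0133), -1.29 ± 0.31 at 4 weeks (adjusted p = 0.0101) and -1.37 ± 0.31 at 8 weeks (adjusted p = 0.00774). Myl3 passed the test in all 3 comparisons whichever of the 20 arrays was left out, with adjusted p of at most 0.0465. Its signal exceeded the brightest background probe set on 4 arrays, all of them controls, and was below it on all 15 injured arrays. That background was higher on the injured arrays (6.14 to 7.14, against 4.995 to 5.70 in the controls) and exceeded the control mean of Myl3 (5.53), so no bound on the fold can be given.

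Myl2, the regulatory light chain of slow and ventricular myosin, did not pass the test. Myl2 had 7.80, 7.82, 7.18, 7.82 and 7.81 in the controls and 7.43, 7.34, 7.86, 7.11 and 7.27 at 1 week. It measured 6.74, 7.12, 7.30, 7.51 and 7.26 at 4 weeks and 7.32, 7.18, 7.38, 6.92 and 7.50 at 8 weeks. All 4-week values lay below the controls other than replicate 3. The difference was -0.50 ± 0.17 at 4 weeks (adjusted p = 0.0548) and -0.42 ± 0.17 at 8 weeks (adjusted p = 0.111). Without control replicate 3, Myl2 passed at 4 weeks (-0.63, adjusted p = 0.0114) and at 8 weeks (-0.55, adjusted p = 0.0249). It also passed at 4 weeks without 1-week replicate 3 (-0.50, adjusted p = 0.0443). Myh7, the slow myosin heavy chain, was not above the brightest background probe set on any of the 20 arrays. Myh7 had 4.11, 4.40, 3.75, 4.92 and 4.31 in the controls and 4.48, 4.53, 5.25, 4.99 and 4.33 at 1 week. The 4-week animals had 4.15, 4.33, 4.57, 4.82 and 4.04 and the 8-week animals 4.39, 3.84, 4.22, 3.85 and 4.12. It did not pass at 1 week (adjusted p = 0.157), and its groups overlapped at all times.

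Casq2, calsequestrin 2, stores calcium in the sarcoplasmic reticulum of slow and cardiac muscle, and it rose at 1 week. Casq2 had 4.62, 5.90, 3.80, 5.79 and 6.63 in the controls and 7.53, 7.59, 9.04, 6.24 and 5.95 at 1 week. At 4 weeks the Casq2 values were 4.96, 3.91, 6.49, 5.96 and 5.60, and at 8 weeks 6.54, 5.48, 4.86, 5.72 and 5.89. Replicates 1, 2 and 3 at 1 week lay above all controls, and replicates 4 and 5 lay within the control range. The difference was 1.92 ± 0.55 at 1 week (adjusted p = 0.0162). It was 0.04 ± 0.55 at 4 weeks (adjusted p = 0.975) and 0.35 ± 0.55 at 8 weeks (adjusted p = 0.737). Between injured groups, Casq2 differed by -1.88 ± 0.55 between 4 weeks and 1 week, with an adjusted p of 0.211 in the limma fit. Without 1-week replicate 3 the rise at 1 week was 1.48 and did not pass (adjusted p = 0.0514).

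Tnnc1, the calcium-binding troponin of slow and cardiac fibres, rose at 1 week. Tnnc1 had 4.70, 4.23, 4.14, 4.37 and 4.67 in the controls and 5.81, 5.83, 8.70, 5.38 and 4.14 at 1 week. Its values were 4.69, 5.53, 4.93, 4.76 and 4.36 at 4 weeks and 4.75, 4.87, 4.88, 4.36 and 4.51 at 8 weeks. At 1 week 4 of the 5 animals lay above all controls, replicate 3 far above the others and replicate 5 at the bottom of the control range. The difference was 1.55 ± 0.48 (adjusted p = 0.0242), and it was 0.43 ± 0.48 at 4 weeks and 0.25 ± 0.48 at 8 weeks, with adjusted p of 0.591 and 0.787 in the limma fit. Without control replicate 2 it did not pass (adjusted p = 0.0532), nor did it where limma was fitted to the compared groups alone (adjusted p = 0.0713). Only 1-week replicate 3 was above the brightest background probe set of its array, and without it every value compared was below background. No bound on the fold is given, since it would rest on that animal.

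**Figure D3:**
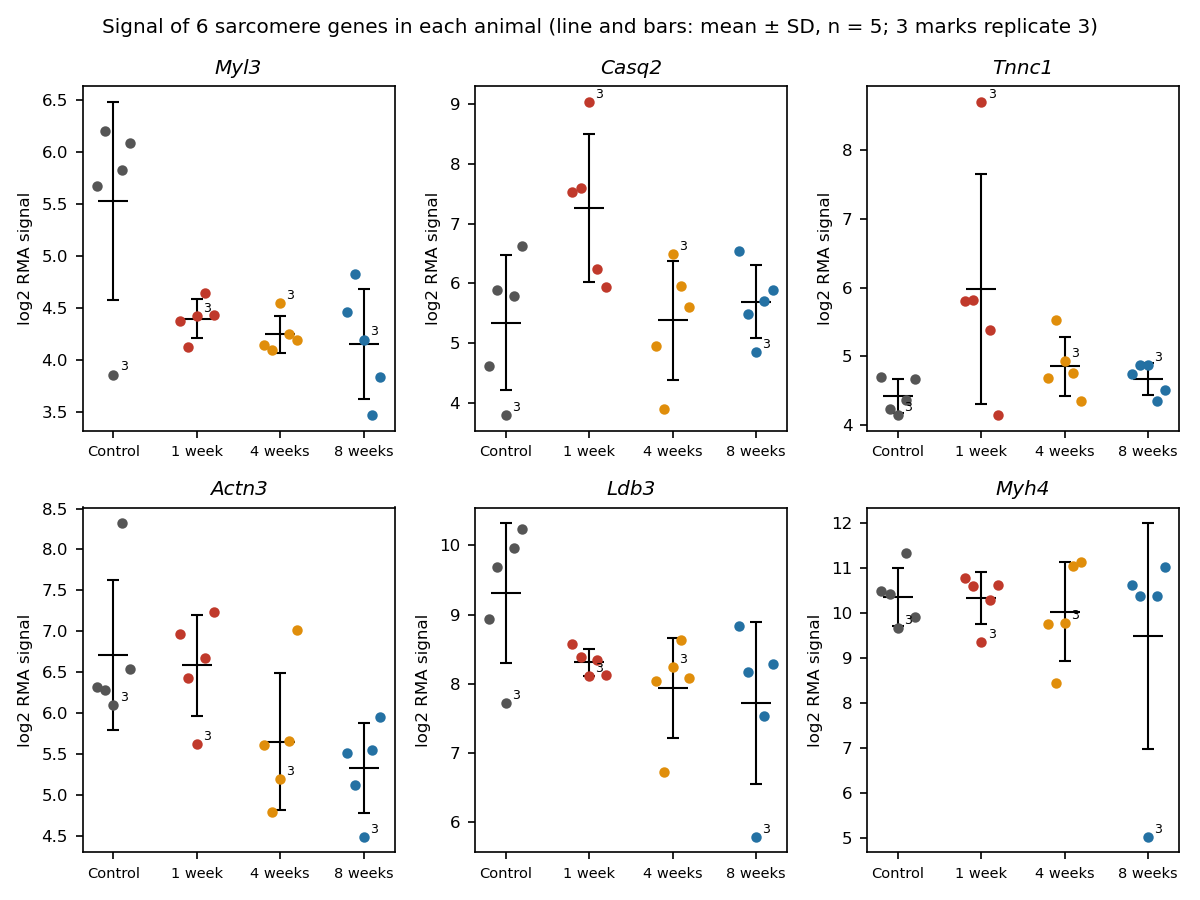
Log2 signal of 6 sarcomere genes in each of the 20 animals, by group, with the mean and SD of 5 animals, replicate 3 of each group marked. Control replicate 3 lies among the injured animals for Myl3, 1-week replicate 3 is the highest point for Casq2 and Tnnc1, and 8-week replicate 3 is the lowest point of Actn3, Ldb3 and Myh4.

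The other slow troponins did not pass the test, and both were highest in the same animal at 1 week. Tnni1 encodes the inhibitory subunit of slow fibres. Tnni1 had 5.34, 5.01, 3.77, 5.25 and 6.14 in the controls and 5.85, 5.997, 8.14, 5.10 and 5.56 at 1 week. It measured 4.87, 5.38, 5.46, 4.65 and 4.66 at 4 weeks and 5.52, 4.51, 4.60, 5.37 and 5.62 at 8 weeks. The 1-week difference was 1.03 ± 0.44 (adjusted p = 0.0952). Tnnt1 encodes the subunit of slow fibres that anchors the complex to tropomyosin. Tnnt1 had 5.97, 6.58, 3.87, 6.58 and 7.71 in the controls and 5.82, 6.88, 8.73, 6.59 and 5.09 at 1 week. The 4-week animals had 4.90, 5.91, 5.33, 4.03 and 4.34 and the 8-week animals 7.49, 5.57, 5.64, 4.50 and 5.04. It differed by 0.48 ± 0.65 at 1 week, -1.24 ± 0.65 at 4 weeks and -0.49 ± 0.65 at 8 weeks, and its lowest adjusted p was 0.212 in the limma fit at 4 weeks.

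Of the remaining slow isoforms, Mybpc1, the slow myosin-binding protein C, had 8.89, 9.66, 7.30, 9.76 and 10.46 in the controls and 8.86, 8.95, 8.92, 8.61 and 8.36 at 1 week. It had 8.50, 7.70, 9.11, 9.03 and 8.80 at 4 weeks and 9.31, 8.99, 6.16, 7.99 and 9.10 at 8 weeks, where replicate 3 was the lowest of the 20 arrays. Its 8-week difference was -0.91 ± 0.51 (adjusted p = 0.268). Atp2a2, the calcium pump of slow and cardiac fibres, which other cells also use, had 9.81, 10.01, 8.33, 10.03 and 10.48 in the controls and 9.95, 9.89, 9.85, 9.58 and 9.63 at 1 week. It had 9.56, 9.30, 9.82, 10.24 and 10.15 at 4 weeks and 10.39, 9.87, 8.89, 9.66 and 10.08 at 8 weeks. Its difference from the controls was between 0.05 and 0.08 at the 3 times and its groups overlapped. Tpm3, the slow tropomyosin gene, had 3 probe sets. At 1 week the brightest, used here, differed by -0.06 ± 0.19 and another by -0.04. The dimmest averaged 4.14 at 1 week, against 4.993 in the controls (adjusted p = 0.04 in the limma fit), and both means lay under the lowest brightest-background value of their group (6.14 at 1 week, against 4.995 in the controls).

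Among the fast isoforms, only Actn3 passed the test, and only at 8 weeks. Actn3 encodes the alpha-actinin that anchors thin filaments at the Z disc of fast fibres. Actn3 had 6.32, 6.28, 6.10, 8.32 and 6.54 in the controls and 6.96, 6.43, 5.62, 6.67 and 7.24 at 1 week. At 4 weeks the Actn3 values were 5.61, 4.79, 5.19, 5.66 and 7.01, and at 8 weeks 5.51, 5.13, 4.49, 5.55 and 5.95. All 5 values at 8 weeks lay below all 5 controls, of which replicate 4 was far above the others. The difference was -0.12 ± 0.41 at 1 week (adjusted p = 0.86), -1.06 ± 0.41 at 4 weeks (adjusted p = 0.0894) and -1.38 ± 0.41 at 8 weeks (adjusted p = 0.0314). It did not pass at 8 weeks without control replicate 4, 8-week replicate 2 or 8-week replicate 3, with adjusted p of up to 0.0937 in the limma fit. It also did not pass with an intensity trend and robust spread (adjusted p = 0.0608). Actn3 was above the brightest background probe set in all 5 controls, on 2 arrays at 1 week, 1 at 4 weeks and 0 at 8 weeks, so at 8 weeks it was at least 1.25-fold lower. That bound is lost without control replicate 4. Pvalb, parvalbumin, the soluble calcium buffer of fast fibres, had 8.96, 8.58, 7.88, 10.63 and 8.74 in the controls and 9.17, 9.32, 8.06, 9.46 and 9.59 at 1 week. It had 8.30, 7.56, 7.86, 7.79 and 9.06 at 4 weeks and 8.14, 7.64, 4.99, 7.80 and 8.81 at 8 weeks, where replicate 3 lay far below the others. The 8-week difference was -1.48 ± 0.54 (adjusted p = 0.0759).

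The 3 fast myosin heavy chains are neighbouring genes with nearly identical sequences, so the array may not tell them apart fully. Myh4 is the chain of the fastest fibres (type IIb). Myh4 had 10.50, 10.43, 9.67, 11.34 and 9.91 in the controls and 10.77, 10.62, 9.35, 10.30 and 10.63 at 1 week. Its values were 9.77, 8.45, 9.77, 11.06 and 11.13 at 4 weeks and 10.63, 10.39, 5.03, 10.39 and 11.03 at 8 weeks. The group ranges overlapped, and 8-week replicate 3 stood apart at 5.03. Its differences were -0.04 ± 0.78, -0.33 ± 0.78 and -0.88 ± 0.78 in time order, with adjusted p of at least 0.508 in the limma fit. Myh1 is the chain of type IIx fibres. Myh1 had 9.86, 10.60, 8.10, 10.50 and 11.29 in the controls and 9.81, 9.92, 9.53, 9.46 and 9.46 at 1 week. It measured 9.36, 9.05, 10.16, 10.42 and 9.77 at 4 weeks and 10.50, 10.05, 7.77, 9.67 and 10.52 at 8 weeks. It differed by -0.43 ± 0.48, -0.32 ± 0.48 and -0.37 ± 0.48, and its groups overlapped at all times.

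Myh2, the chain of the slower, oxidative fast fibres (type IIa), had the largest within-group SD of the members. Myh2 had 9.09, 9.63, 4.95, 9.48 and 10.43 in the controls and 6.09, 7.68, 8.80, 6.97 and 6.78 at 1 week. The 4-week animals had 8.14, 8.89, 9.55, 6.55 and 5.16 and the 8-week animals 9.13, 7.94, 7.42, 7.89 and 8.12. Of the controls, 4 lay above all 5 animals at 1 week and replicate 3 lay below them. The 1-week difference was -1.45 ± 0.82 (adjusted p = 0.216). Without control replicate 3 it was -2.39 and passed (adjusted p = 0.0114), and the 4-week difference was -1.998 and passed (adjusted p = 0.0423). In 8-week replicate 3, where Myh4 was the lowest of the 20 arrays, Myh2 had 7.42, above control replicate 3 and above replicates 4 and 5 at 4 weeks.

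The light chains and thin-filament regulators of fast fibres passed the test in no comparison with the controls. Myl1, the essential light chain of fast myosin, had 10.60, 10.89, 9.49, 11.25 and 11.38 in the controls and 11.20, 10.98, 10.96, 10.63 and 10.77 at 1 week. It had 10.49, 9.99, 10.83, 11.06 and 10.94 at 4 weeks and 11.10, 10.70, 8.94, 10.48 and 11.02 at 8 weeks. Mylpf, the regulatory light chain of fast myosin, was tighter at 1 week than in any other group. So was the mean of all 35 members (SD 0.20 at 1 week, against 0.90 in the controls). Mylpf had 9.42, 9.71, 8.04, 10.21 and 10.34 in the controls and 10.41, 10.53, 10.38, 10.16 and 10.10 at 1 week. At 4 weeks the Mylpf values were 9.49, 9.10, 9.84, 9.99 and 9.85, and at 8 weeks 10.24, 9.71, 6.99, 9.19 and 9.92. Its 1-week difference was 0.77 ± 0.45 (adjusted p = 0.229). All 1-week values lay above 3 of the 5 controls.

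Tnni2, the inhibitory troponin of fast fibres, showed a like pattern. Tnni2 had 9.22, 9.97, 7.80, 9.97 and 10.62 in the controls and 10.49, 10.49, 10.10, 10.38 and 10.06 at 1 week. Its values were 9.85, 9.69, 10.22, 10.42 and 10.14 at 4 weeks and 10.89, 10.39, 8.01, 9.51 and 10.24 at 8 weeks. The 1-week values lay above all controls but replicate 5, with a difference of 0.79 ± 0.44 (adjusted p = 0.204). It was 0.55 ± 0.44 at 4 weeks (adjusted p = 0.433) and 0.29 ± 0.44 at 8 weeks (adjusted p = 0.72). The calcium-binding fast troponin Tnnc2 had 9.89, 10.48, 8.61, 10.75 and 11.16 in the controls and 10.62, 10.57, 10.44, 10.44 and 10.27 at 1 week. It had 10.07, 9.63, 10.43, 10.73 and 10.54 at 4 weeks and 10.91, 10.42, 8.17, 9.86 and 10.73 at 8 weeks. Tnnt3, the tropomyosin-binding fast troponin, had 10.38, 10.81, 9.07, 10.97 and 11.26 in the controls and 10.94, 10.81, 10.66, 10.70 and 10.59 at 1 week. It had 10.20, 9.72, 10.67, 11.04 and 10.70 at 4 weeks and 11.06, 10.80, 8.14, 10.04 and 10.80 at 8 weeks. In both genes every 1-week value lay within the range of the controls.

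Casq1, the calsequestrin of fast fibres, also varied least at 1 week. Its SD was 0.23, 0.83 and 1.60 at 1, 4 and 8 weeks, against 0.945 in the controls. Casq1 had 8.27, 8.60, 7.06, 9.44 and 9.25 in the controls and 9.49, 9.42, 8.96, 9.13 and 9.43 at 1 week. It measured 7.81, 6.83, 7.90, 8.59 and 9.01 at 4 weeks and 8.59, 8.09, 4.88, 7.91 and 8.84 at 8 weeks. The differences were 0.76 ± 0.56 at 1 week, -0.50 ± 0.56 at 4 weeks and -0.86 ± 0.56 at 8 weeks, and the limma fit gave adjusted p of 0.349, 0.594 and 0.337. All 5 values at 8 weeks lay below all 5 at 1 week. The difference between these groups, -1.62 ± 0.56, had an adjusted p of 0.315 in the limma fit. Atp2a1, the calcium pump of fast fibres, had 11.05, 11.49, 10.31, 11.89 and 11.96 in the controls and 11.03, 10.97, 10.10, 10.48 and 10.97 at 1 week. It had 10.37, 9.92, 10.83, 11.37 and 11.23 at 4 weeks and 11.28, 11.005, 7.75, 10.67 and 11.40 at 8 weeks, where replicate 3 was far below. Myoz1, a fast-fibre Z-disc protein that binds calcineurin, had 7.49, 8.23, 6.32, 8.59 and 9.49 in the controls and 8.25, 7.93, 7.32, 7.86 and 7.82 at 1 week. It had 7.60, 7.12, 8.23, 8.29 and 8.08 at 4 weeks and 8.89, 8.35, 5.22, 7.25 and 7.90 at 8 weeks. Mylk2, the kinase that phosphorylates the regulatory light chain, had group means between 5.05 and 5.66, and was above the brightest background probe set on 3 arrays.

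Of the 11 shared genes only Ldb3 passed the test, at 8 weeks. Ldb3 (ZASP, or Cypher) is a PDZ and LIM domain protein that holds alpha-actinin at the Z disc. Ldb3 had 8.94, 9.69, 7.72, 9.96 and 10.24 in the controls and 8.57, 8.38, 8.11, 8.35 and 8.13 at 1 week. The 4-week animals had 8.03, 6.71, 8.24, 8.64 and 8.09 and the 8-week animals 8.83, 8.17, 5.78, 7.53 and 8.29. As for Myl3, 4 of the 5 controls lay above all 15 injured arrays, and replicate 3 did not. The difference was -1.003 ± 0.47 at 1 week (adjusted p = 0.132), -1.37 ± 0.47 at 4 weeks (adjusted p = 0.057) and -1.59 ± 0.47 at 8 weeks (adjusted p = 0.0314). The 8-week fall did not pass without control replicate 2, 4 or 5 or without 8-week replicate 3 or 4 (adjusted p of up to 0.0879), nor where limma was fitted to the compared groups alone (adjusted p = 0.088) or with an intensity trend and robust spread (adjusted p = 0.063). Without control replicate 3 Ldb3 passed at all 3 times (-1.40, -1.77 and -1.99, with adjusted p of 0.0255, 0.0107 and 0.00573 in the limma fit).

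The rest of the shared genes showed the same 2 low arrays and no difference past the threshold. Tpm1, the alpha-tropomyosin gene, was the shared member with the largest positive difference. Tpm1 had 9.63, 10.04, 8.84, 10.32 and 10.59 in the controls and 10.40, 10.37, 10.44, 10.03 and 10.16 at 1 week. At 4 weeks the Tpm1 values were 9.98, 9.67, 10.17, 10.23 and 10.30, and at 8 weeks 10.44, 9.96, 9.02, 9.96 and 10.46. It differed by 0.40 ± 0.27 at 1 week, 0.18 ± 0.27 at 4 weeks and 0.09 ± 0.27 at 8 weeks, and the groups overlapped. Mybph, a myosin-binding protein, differed by -1.29 ± 0.57 at 4 weeks (adjusted p = 0.136), and passed at 4 and at 8 weeks without control replicate 3 (-1.80 and -1.60). Acta1, skeletal actin, Des, the intermediate filament desmin, Ckm, muscle creatine kinase, Actn2, the alpha-actinin of all fibres, Tpm2, Myot (myotilin), Smpx and Tcap (telethonin, the titin cap) differed by between -1.03 and 0.24 across the 3 times. Myot at 8 weeks was at the low end of that range (-1.03 ± 0.51, adjusted p = 0.203) and passed without control replicate 3 (-1.52, adjusted p = 0.0323).

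Read by fibre type, the median difference from the controls at 1, 4 and 8 weeks was 0.06, -0.29 and -0.55 for the 14 fast genes and 0.23, -0.04 and -0.10 for the 10 slow genes. For the 11 shared genes it was -0.18, -0.35 and -0.48. Among the slow genes, Myh7, Tnnc1, Myl3, Tnni1, Tnnt1 and Casq2 were above the brightest background probe set on 0, 1, 4, 4, 7 and 8 of 20 arrays. Among the fast genes, Mylk2 and Actn3 were above it on 3 and 8. The slow medians thus rest more on signals near background and are not fully comparable with the fast medians. With 1 array left out in turn, the fast medians ranged from -0.17 to 0.30, -0.55 to 0.04 and -0.89 to 0.09 in time order, and the slow medians from -0.16 to 0.35, -0.39 to 0.08 and -0.33 to 0.007. The shared medians ranged from -0.56 to 0.09, -0.72 to -0.04 and -0.91 to -0.13. The lowest value came each time without control replicate 3, and the highest with 8-week replicate 3 left out (fast and shared genes at 8 weeks) or with replicate 4 or 5 of the controls left out. Without 1-week replicate 3 the slow median at 1 week was -0.006. Fast and slow genes thus had no direction that held without each single array at any time. Read by position, the 8-week medians were -0.61 for the thick filament (-0.86 to -0.25 with 1 array left out), -0.07 for the thin filament (-0.43 to 0.16) and -0.60 for the Z disc and costamere (-1.03 to -0.09). The calcium-handling genes had -0.86 (-1.18 to -0.17). The highest value came without control replicate 5 for the thick filament and without 8-week replicate 3 for the rest. The 3 comparisons share the control animals.

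Between the injured groups, limma called 0 of the 35 members at 4 weeks against 1 week, 0 at 8 weeks against 1 week and 0 at 8 weeks against 4 weeks. The background was as sparse, with 0.126%, 0.233% and 0% of probe sets called. At an unadjusted p under 0.05 there were 6, 8 and 0 members. The share of all probe sets at that unadjusted cut is not given, so these counts have no like background. The 6 at 4 weeks against 1 week (Actn3, Tnnt1, Tnni1, Tnnc1, Casq1 and Casq2) were all lower at 4 weeks. The 8 at 8 weeks against 1 week (Myh7, Mylpf, Actn3, Tnni1, Tnnc1, Casq1, Casq2 and Pvalb) were all lower at 8 weeks. Of the genes named in these comparisons, Myh7, Tnnt1, Tnni1, Tnnc1 and Casq2 had their highest signal of the 20 arrays in 1-week replicate 3.

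Other genes of the muscle cell were read from lists that hold no member. Of 21 further genes listed as sarcomere genes, such as the thin-filament capping protein Tmod1, limma called 0 in each comparison with the controls. At an unadjusted p under 0.05 there were 4, 4 and 3 at 1, 4 and 8 weeks. The list also holds Myh14, a non-muscle myosin heavy chain. Ankrd2 was above the brightest background probe set on 0 of 20 arrays, Trim55 and Trim63 on 3, and Myom2 and Capn3 on 4. The medians of the 21 genes were -0.35, -0.35 and -0.54. The 8-week median was -0.12 without 8-week replicate 3, and without control replicate 5 the medians were -0.03, -0.04 and -0.23. Without control replicate 3 they were -0.85, -0.87 and -0.96. Of 16 triad and calcium genes, 0 passed at 1 and at 4 weeks, where 2 each had an unadjusted p under 0.05 in the limma fit. At 8 weeks Trdn (triadin, which ties calsequestrin to the calcium release channel) fell by 1.71 (adjusted p = 0.0426). Of 17 genes of muscle energy supply, Fbp2, the muscle fructose-bisphosphatase, fell at 1 week (adjusted p = 0.00775), and 0 passed at 4 and 8 weeks, where 1 and 2 had an unadjusted p under 0.05 in the limma fit. Fbp2 was above the brightest background probe set on 1 array, a control, so no bound on its fold can be given.

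Of 16 regulators of fibre type measured, 1 rose and 5 fell at 1 week, 1 rose and 2 fell at 4 weeks, and 1 rose and 1 fell at 8 weeks. Ppargc1a (PGC-1alpha), the coactivator that drives mitochondrial and slow-fibre genes, fell at all 3 times (-1.07 ± 0.34, -1.22 ± 0.34 and -1.17 ± 0.34 in time order), with adjusted p of 0.0276, 0.0214 and 0.0291 in the limma fit. Its partner Esrrg, an oestrogen-related receptor, fell at 1 week (adjusted p = 0.0259) and at 4 weeks (adjusted p = 0.0157). Esrrg was below the brightest background probe set on all 15 injured arrays, which leaves no bound on its fold, and Ppargc1a was below it on all but 1 at each time. Mef2d, a MEF2 factor, fell at 1 week (-0.72 ± 0.20, adjusted p = 0.0127). The large Maf factor Maf, which is linked to the fast Myh4 programme in the mouse but is also expressed outside muscle, rose at 1, 4 and 8 weeks (1.02 ± 0.17, 0.95 ± 0.17 and 0.90 ± 0.17, adjusted p of 2.62e-04, 0.00105 and 0.00187 in the limma fit).

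Of 9 genes of embryonic and regenerating muscle, 4 rose at 1 week, as Casq2 and Tnnc1 did, and 5 did not pass the test. Among the 4 were Myh3, the embryonic myosin heavy chain (2.37 ± 0.42, adjusted p = 5.39e-04), Myl4, the embryonic and atrial light chain (2.17 ± 0.55, adjusted p = 0.00735), and Tnnt2, the troponin T of embryonic and cardiac muscle (adjusted p = 0.0146). Tnnt2 was above the brightest background probe set only in 1-week replicate 3, so no fold is given. The other of the 4, Myog, the myogenic factor of differentiation, was below that background on all 20 arrays. The mean of this list was 6.72 ± 0.67 at 1 week, against 5.80 ± 0.52 in the controls (SD, n = 5 each), and it was highest in 1-week replicate 3. At 4 and 8 weeks its mean was 5.79 and 5.80, and 1 gene fell each time, the adhesion molecule Ncam1 (at least 1.48-fold lower at 4 weeks). The 6 measured cardiac genes were below the brightest background probe set on all 20 arrays.

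Markers of other tissues in the fold also moved with injury, and their part in the members' differences was not tested. Of 7 fibroblast and matrix genes, the summed linear signal ranged from 8505 to 11048 at 1 week, against 4719 to 7718 in the controls, and Col1a1 (1.80 ± 0.20), Col3a1, Lum and Fbn1 rose at 1 week. The summed signal of the 35 members ranged from 20762 to 26116 at 1 week, 12743 to 26519.5 at 4 weeks and 5189 to 29116 at 8 weeks, against 8872 to 39990.2 in the controls. The 6 macrophage genes had sums of 742.9 to 1077 at 1 week, against 418.0 to 978.1 in the controls, and C1qa rose at all 3 times. The 6 cartilage genes had sums of 269.3 to 374.8 at 1 week, 164.1 to 200.2 at 4 weeks and 208.4 to 493.6 at 8 weeks, against 95.1 to 226.1 in the controls, and 3, 1 and 3 of them rose, Col2a1 at all 3 times. Col2a1 was above the brightest background probe set on 9 of the 20 arrays. Of 7 smooth muscle genes Myh11 fell at 1 week (adjusted p = 0.00173), where it was below the brightest background probe set on all 5 arrays with no bound on its fold, and the other 6 did not pass (median of the list 0.04, 5 of 7 higher). At 4 and 8 weeks 0 of the 7 passed in limma, and 2 and 0 had an unadjusted p under 0.05. Of 6 genes of ciliated and secretory epithelium, 2 fell at 4 weeks and 1 at 8 weeks. Scgb1a1 fell both times (-1.73 ± 0.55 and -2.38 ± 0.55), while 3 of the 6 were higher than in the controls at 8 weeks (median of the list -0.37).

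**Figure D4:**
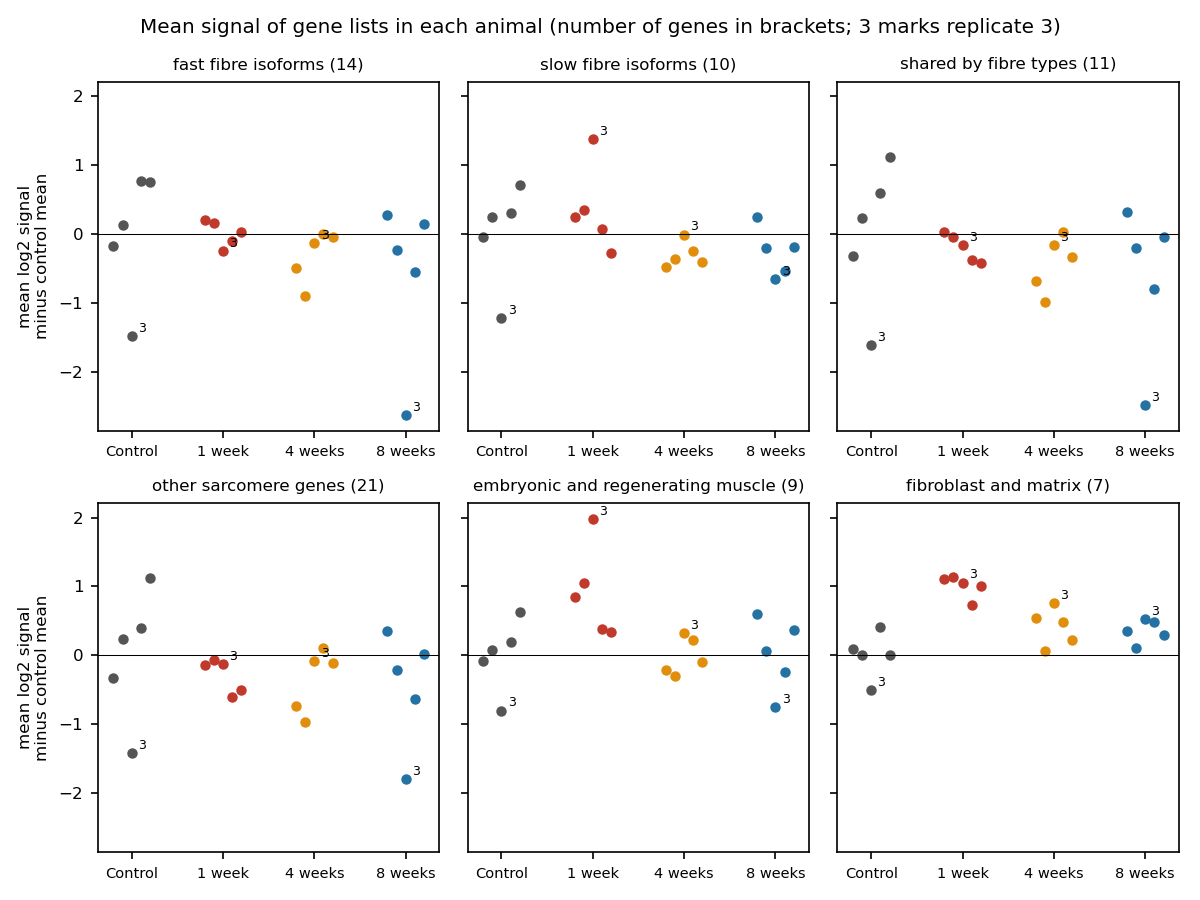
Mean log2 signal of 6 gene lists in each of the 20 animals, as the difference from the control mean, by group (number of genes in brackets, replicate 3 marked). Control replicate 3 and 8-week replicate 3 are low in the fast, shared and other sarcomere lists, 1-week replicate 3 is the highest point of the slow and of the embryonic list, and all 1-week animals lie above all controls in the fibroblast list.

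To read the members at a like level of muscle signal, the mean of the 21 genes listed as further sarcomere genes was added to the fit as a covariate. These include no member, but they include Myh14 and the dim genes named above. This fit was chosen after the data were seen, and its calls are not given with single arrays left out. The covariate mean was 6.71 ± 0.25 at 1 week, 6.64 ± 0.47 at 4 weeks and 6.55 ± 0.83 at 8 weeks, against 7.003 ± 0.95 in the controls (SD, n = 5 each). It was lowest on 8-week replicate 3 (5.21) and control replicate 3 (5.59). A rise or fall in this fit is relative to that mean, which was itself lower at 1 week than in the controls. With it 11 members rose at 1 week and 2 fell, where 13.2% of probe sets rose and 10.7% fell. The covariate is made of genes like the members, and the median SE of the fast genes was 0.225 with it and 0.466 without it. The shares over all probe sets are therefore not a like background for the members. The 11 were 6 fast genes (Myl1, Mylpf, Tnnt3, Tnni2, Tnnc2 and Casq1), 3 slow genes (Tnni1, Tnnc1 and Casq2) and 2 shared genes (Tpm1 and Smpx). Of the 11, 6 encode troponin subunits or tropomyosin, and among them Tnnc1 and Tnni1 were above the brightest background probe set on 1 and 4 arrays. The other measured troponin and tropomyosin genes, Tnnt1, Tpm2 and Tpm3, did not pass (adjusted p of 0.387, 0.617 and 0.899 in the limma fit). Tnni2 rose by 1.11 ± 0.16 (adjusted p = 6.95e-05), Mylpf by 1.10 ± 0.18 (adjusted p = 1.94e-04) and Casq2 by 2.26 ± 0.36 (adjusted p = 1.87e-04). Casq2, Tnnc1 and Tnni1 had their highest signal in 1-week replicate 3, where the covariate was 6.88. The heavy chains Myh1, Myh2, Myh4 and Myh7 did not pass.

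At 4 weeks in the same fit Tnni2, Tnnc2 and Tpm1 were higher and Myl3 and Ldb3 lower (9.06% and 5.43% of probe sets). At 8 weeks Tnni2, Tpm1 and Atp2a2 were higher and Myl3 and Ldb3 lower (8.6% and 4.24%). Myl3 fell in this fit by 0.99, 1.11 and 1.16 at 1, 4 and 8 weeks, and Ldb3 fell by 0.66, 0.94 and 1.05. Between injured groups, Casq2 was lower at 4 weeks than at 1 week (-1.80 ± 0.36, adjusted p = 0.0332), where 0.233% of probe sets were lower. Mylpf (-0.91 ± 0.17, adjusted p = 0.0191) and Casq1 (-1.40 ± 0.29, adjusted p = 0.0298) were lower at 8 weeks than at 1 week, where 0.246% were.

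**Figure D5:**
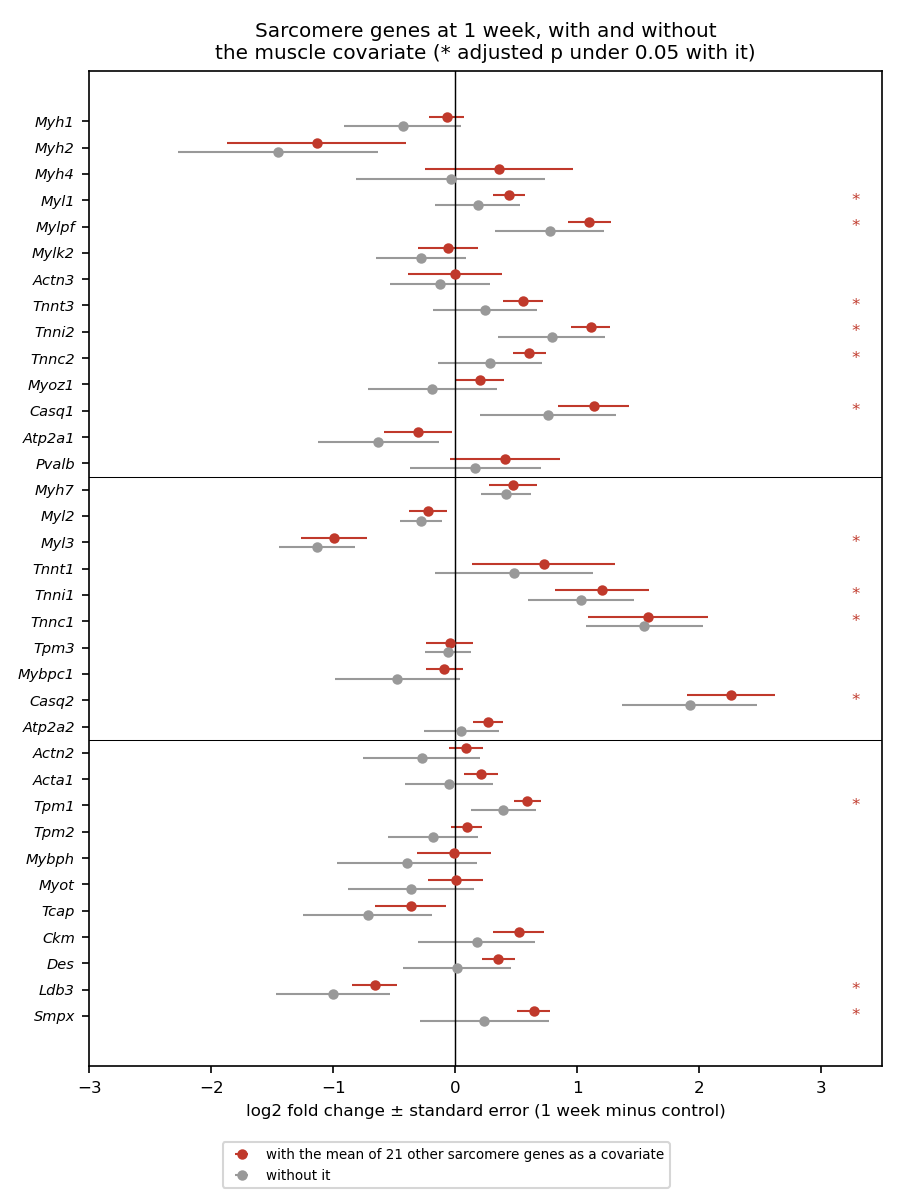
Log2 fold change with its standard error at 1 week, 1 week minus control, of the 35 measured genes, fitted with the mean of the 21 genes listed as other sarcomere genes as a covariate (red) and without it (grey). Stars mark the 13 genes with an adjusted p under 0.05 with the covariate, 11 of them to the right of 0 and Myl3 and Ldb3 to the left.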

How the data were processed

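The authors deposited log2 RMA signals (background correction within arrays, summary over probes). The study's methods name TAC software with global scaling and the Clariom S array, while the labels name Clariom D and Affymetrix Expression Console, and the genome build is not given in the sources used here. Groups and replicate numbers came from the sample titles. Of 24871 probe sets, the 15049 with 1 gene name were tested with limma 3.58.1 (R 4.3.3), all 4 groups in 1 fit without covariates, for 6 comparisons with Benjamini-Hochberg adjustment. A gene with several probe sets was read from the brightest. The members and the lists of other genes were chosen with earlier results of these data known. Array values are given for the 4 members with the smallest adjusted p in each direction in each comparison with the controls and for fast and slow isoforms of 1 subunit, and up to 4 genes are named of each other list. The fit was tested on simulated data. Alternatives covered normalization, spread, weights, filters, the test and each array left out. Figures were drawn with matplotlib 3.10.9. The number of animals, 5 per group, limits the precision.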

Additional observations from a re-analysis of the deposited data

Results flagged for a closer look

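In 12 of 140 sets of 5 animals (35 genes in 4 groups), the highest or lowest animal lay so far from the others that its gap passed the 95% critical value of Dixon's test, and chance flags about 1 in 20 sets. Control replicate 3 was low in 4 of them: Myh2 (4.95, next value 9.09), Myl2 (7.18, next 7.80), Myl3 (3.86, next 5.68) and Tpm3 (7.25, next 8.13). Replicate 3 at 8 weeks was low in 4 fast genes: Myh4 (5.03, next value 10.39), Myl1 (8.94, next 10.48), Casq1 (4.88, next 7.91) and Atp2a1 (7.75, next 10.67). Replicate 3 at 1 week was low in 3 genes: Tcap (4.91, next value 6.22), Pvalb (8.06, next 9.17) and Ckm (9.27, next 9.84). Control replicate 4 was high in Actn3 (8.32, next value 6.54). Members share arrays, so these flags are not independent of each other.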

How the results depend on the processing

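With 1 array left out in turn, limma called 2 to 5 members at 1 week, 1 to 6 at 4 weeks and 1 to 8 at 8 weeks, the highest each time without control replicate 3, and the lowest at 8 weeks without control replicate 4 or 8-week replicate 3. It called 0 in each of the 3 comparisons between injured groups. At 4 weeks the count was 3 with quantile normalization, 3 with arrays centred on their medians, 3 with the replicate number as a block and 2 without the dimmest 25% of probe sets. With array weights it was 6, 5 and 7 at 1, 4 and 8 weeks, and with an intensity trend and robust spread 1 at 8 weeks. The shares of all probe sets called under these settings are not given, so a changed count is not a result about the members in particular. Fitted to the compared groups alone, Tnnc1 at 1 week and Ldb3 at 8 weeks did not pass. The methods' one-way analysis of variance with Benjamini-Hochberg adjustment called 0, 0 and 0 (2, 3 and 3 at an unadjusted p under 0.05). That analysis of variance called 10.9%, 2.65% and 3.3% of all probe sets at 1, 4 and 8 weeks. Adding the mean of the hybridization controls as a covariate, limma called 0, 0 and 0 (18, 25 and 26 at an unadjusted p under 0.05). Only 0.545%, 0.0664% and 0.0598% of all probe sets were called in that fit, whose covariate did not overlap between injured and control arrays, and 23 of 65 values without a call, among the members given by array, changed sign. With the other sarcomere signal as a covariate the counts were 13, 5 and 5, then 1 (4 weeks against 1 week) and 2 (8 weeks against 1 week), and without control replicate 3 and 8-week replicate 3 together 9 at 1 week and 10 at 4 weeks, both chosen after the data were seen. The cause of these shifts was not tested. No called value changed direction under any alternative run. The replicate block changed no other count by over 1.5 times. Same-numbered animals did not deviate together (correlation -0.27 to 0.32, median -0.05), and the labels do not pair them. Dim members (Myh7, Tnnc1, Mylk2, Myl3, Tnni1, Tnnt1, Casq2 and Actn3, above the brightest background probe set on 0, 1, 3, 4, 4, 7, 8 and 8 arrays) are limited by signal.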
